A study of Mus musculus with 6 samples.

Results

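Hsp70 chaperones hold and release unfolded proteins in step with the exchange of ADP for ATP, and nucleotide exchange factors are the co-chaperones that open the Hsp70 nucleotide pocket and so set when a client is let go. The 10 genes described here encode the 6 BAG proteins of the cytosol and nucleus (Bag1 to Bag6), the cytosolic exchange factor Hspbp1, its relative Sil1 in the endoplasmic reticulum, and the mitochondrial pair Grpel1 and Grpel2. They were chosen by name, and all 10 were found among the 25206 probe sets of the array table, 1 probe set per gene. JG-98 is an allosteric inhibitor of Hsp70 that binds its nucleotide-binding domain and weakens the contact between Hsp70 and BAG proteins such as Bag3. The comparison asks whether macrophages given that inhibitor carry altered amounts of the transcripts for the exchange factors themselves.

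Expression was measured on 6 arrays of mouse macrophages differentiated from bone marrow, the professional phagocytes of tissue. The labels give 3 control samples, which received no treatment, and 3 samples treated with JG-98, with the dose written as 0.3 micromole and the time as 16 hours. They state no volume, vehicle, mouse strain, sex or age, and they do not say whether replicates came from separate mice or cultures. So the p-values reflect how far these samples scatter, and that scatter could be technical alone. Values are on a log2 scale on which 1 unit is a doubling, and an array's middle probe set lay between 4.08 and 4.24. JG-98 replicate 3 stood apart, correlating with the other arrays at 0.992 to 0.993 where the other 5 correlated with each other at 0.995 to 0.996, so the difference of each member is also given without it. All 9 measured macrophage markers lay above the median of every array. The other cell type lists lay mostly below it on every array, with 9 of 10 neutrophil, 7 of 10 stromal, 7 of 8 dendritic cell and 7 of 9 lymphoid markers. The mean of the macrophage markers was 10.31 to 10.35 in the controls and 10.22 to 10.28 with JG-98. With limma over all probe sets, 0 of these 9 had an adjusted p under 0.05. Their differences, JG-98 minus control, were above 0 in 2 and below 0 in 7. At an unadjusted p under 0.05, 0 were higher (background 3.84% of probe sets) and 2 lower (background 4.48%). In such bulk samples fewer cells of a type and less RNA per cell cannot be told apart.

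None of the 10 genes passed the test. With limma over all probe sets, 0 of 10 had an adjusted p under 0.05 (background 0.0397% of probe sets), and 0 of 10 an unadjusted p under 0.05 (background 8.32%). The smallest adjusted p among them was 0.72. Without JG-98 replicate 3 both counts were again 0 (background 0.0198% and 11.3%). All 10 genes read above the median of their array on every array. In 0 of 10 did the JG-98 values all lie on one side of the control values, as they did in 15.6% of all probe sets. The differences ran from -0.062 for Bag3 to 0.15 for Bag2, with 6 genes above 0 and 4 below, and a median of 0.026 where that of all probe sets was 0.00080. These medians were 0.013 and -0.016 without JG-98 replicate 3. The median size of the difference, sign ignored, was 0.058 in the 10 genes and 0.088 over all probe sets. Over the 8064 probe sets with a mean of at least 6, which include 9 of the 10 genes, it was 0.078. For 6 genes (Bag3, Bag4, Bag5, Bag6, Hspbp1 and Sil1) the 95% interval of the ratio held no change of 1.2-fold or more in either direction. For the other 4 (Bag1, Bag2, Grpel1 and Grpel2) the interval reached past 1.2-fold upward, to 1.30-fold at most, in Grpel1.

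Promoters of the members were examined beside these values, because several exchange factor genes are known targets of stress factors. RefSeq start sites of build GRCm38.p6 were listed for 7 of the 10 genes, namely Bag1, Bag2, Bag3, Bag5, Bag6, Hspbp1 and Grpel1, and the 250 bases before each start were searched on both strands. Bag3 is shown as a textbook target of heat shock factor 1 (HSF1), Bag1 as the BAG gene it is compared with, Grpel1 for the mitochondrial results, and Hsph1, which is no member, as a further HSF1 target of the exchange factor class. Capitals mark matches, on either strand, to the GC box GGGCGG that Sp1 binds, to the CCAAT box that is bound by NF-Y, to the AP-1 site of the Fos and Jun family, whose letters are TGACTCA, and to the heat shock element as 2 of its units, TTCNNGAA. The stretches are chr7:128523333-128523582 on the plus strand for Bag3, chr4:40948295-40948544 on the minus strand for Bag1, chr5:36464935-36465184 on the plus strand for Grpel1 and chr5:149636337-149636586 on the minus strand for the first listed start of Hsph1.
Bag3: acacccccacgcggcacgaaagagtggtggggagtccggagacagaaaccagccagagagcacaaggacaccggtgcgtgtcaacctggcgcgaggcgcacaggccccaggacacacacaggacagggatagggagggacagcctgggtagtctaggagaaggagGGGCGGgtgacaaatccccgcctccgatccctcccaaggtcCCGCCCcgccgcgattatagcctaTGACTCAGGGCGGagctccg
Bag1: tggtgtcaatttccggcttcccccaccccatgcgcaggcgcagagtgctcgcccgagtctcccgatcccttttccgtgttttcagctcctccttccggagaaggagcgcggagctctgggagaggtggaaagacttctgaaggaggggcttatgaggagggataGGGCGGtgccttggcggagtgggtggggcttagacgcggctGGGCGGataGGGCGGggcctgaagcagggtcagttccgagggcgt
Grpel1: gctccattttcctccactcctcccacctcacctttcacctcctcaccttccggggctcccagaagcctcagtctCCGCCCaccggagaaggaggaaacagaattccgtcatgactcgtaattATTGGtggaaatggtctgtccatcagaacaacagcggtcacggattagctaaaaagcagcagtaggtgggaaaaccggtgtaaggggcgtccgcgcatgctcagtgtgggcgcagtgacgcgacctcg
Hsph1: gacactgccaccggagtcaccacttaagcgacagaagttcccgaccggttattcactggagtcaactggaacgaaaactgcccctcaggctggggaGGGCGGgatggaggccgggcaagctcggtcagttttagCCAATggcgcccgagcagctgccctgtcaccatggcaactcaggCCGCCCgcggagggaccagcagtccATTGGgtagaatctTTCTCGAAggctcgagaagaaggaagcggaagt

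A GC box stood before all 7 member genes, 3 times each before Bag3 and Bag1, and in 33.0% of 32536 distinct promoter windows of the same length. Bag5, with 2 listed starts, held it only before the second. The CCAAT box stood before Grpel1 among the 7, and in 33.8% of windows. In Bag3 an AP-1 match at positions -20 to -14 from the start, which 4.45% of windows hold, overlaps no other match and directly precedes the last GC box. The heat shock element was searched as 3 alternating units of GAA and TTC with 2 bases between units, found in 0.470% of windows. On both strands, starting with GAA or with TTC is the same search. It was also searched as 2 units (TTCNNGAA in 7.19% and GAANNTTC in 6.72%). None of these was found in the windows of the 7 members, and TTCNNGAA was found at -33 to -26 before Hsph1. The CARE element of ATF4 (TGATGNAA, in 3.40% of windows) and the endoplasmic reticulum stress element ERSE (in 0.114%) were not found before the 7 members either. A match is a description of letters, and an absent match says only that they are not in that window.

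Bag3 couples Hsp70 to small heat shock proteins and to selective autophagy, and it is the partner whose contact with Hsp70 JG-98 is best known to weaken. Its values were 8.05, 8.14 and 8.13 in the controls and 7.95, 8.12 and 8.07 with JG-98. The groups overlapped, and the lowest of the 6 values was that of JG-98 replicate 1. The difference was -0.062 ± 0.074 (SE, n = 3 per group; limma adjusted p = 0.88), with a 95% interval from 0.85-fold to 1.08-fold. The value was -0.076 ± 0.080 when JG-98 replicate 3 was left out and -0.013 when JG-98 replicate 1 was. An induction of Bag3 transcripts above 1.08-fold thus lay outside that interval.

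Bag1 carries a ubiquitin-like domain that joins Hsp70 to the proteasome, and its probe set gives no separate values for its isoforms. It read 7.74, 7.46 and 7.66 in the controls and 7.82, 7.73 and 7.49 with JG-98. Control replicate 2 and JG-98 replicate 3 were the low arrays, so the spread within each group (SD 0.14 and 0.17) exceeded the difference between groups of 0.058 ± 0.11 (limma adjusted p = 0.93). Without JG-98 replicate 3 the difference was 0.15 ± 0.10 (limma adjusted p = 0.62), and without control replicate 2 it was -0.020. Within each array, Bag3 minus Bag1 averaged 0.49 ± 0.18 (SD, n = 3) in the controls and 0.37 ± 0.23 (SD, n = 3) with JG-98. The ranges of the 2 groups overlapped. The change in that difference was -0.12 (exact two-sided permutation p = 0.5, and 0.75 after Benjamini-Hochberg adjustment over 3 such gene pairs), where 0.1 is the smallest p that 3 against 3 samples allow. Without JG-98 replicate 3 it was -0.23.

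Bag2 inhibits the ubiquitin ligase CHIP, which otherwise marks Hsp70 clients for degradation. It had the largest difference of the 10 genes. Its values were 4.76, 4.89 and 4.94 in the controls and 5.07, 4.90 and 5.06 with JG-98. JG-98 replicates 1 and 3 were above every control, and JG-98 replicate 2 lay within the control range. The difference was 0.15 ± 0.084 (SE, n = 3 per group; limma adjusted p = 0.72), a 1.11-fold ratio with a 95% interval of 0.96 to 1.27. It was 0.12 ± 0.092 without JG-98 replicate 3. By its unadjusted p of 0.13, Bag2 ranked 4444 of 25206 probe sets. A larger difference in size was seen in 27.5% of all probe sets.

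Bag4, known as a silencer of death domains for its binding to the tumour necrosis factor receptor, had the smallest spread within groups of the 10 genes. It read 7.14, 7.07 and 7.14 in the controls and 7.08, 7.12 and 7.11 with JG-98. Its difference was -0.014 ± 0.062, and its 95% interval ran from 0.89-fold to 1.10-fold. It was -0.020 ± 0.064 without JG-98 replicate 3. Bag5, which holds several BAG domains in a row and binds parkin, read 6.05, 5.93 and 6.07 in the controls and 5.99, 6.02 and 6.15 with JG-98. JG-98 replicate 3 was the highest array and control replicate 2 the lowest. The difference of 0.040 ± 0.078 was -0.0080 without the former and -0.0048 without the latter. Bag6 chaperones tail-anchored membrane proteins before their insertion. It read 8.24, 8.30 and 8.37 in the controls and 8.31, 8.29 and 8.35 with JG-98, so that all JG-98 values fell inside the control range. Its difference was 0.013 ± 0.066, and -0.0065 after median centring of the arrays. It was -0.0031 ± 0.069 without JG-98 replicate 3.

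**Figure D1:**
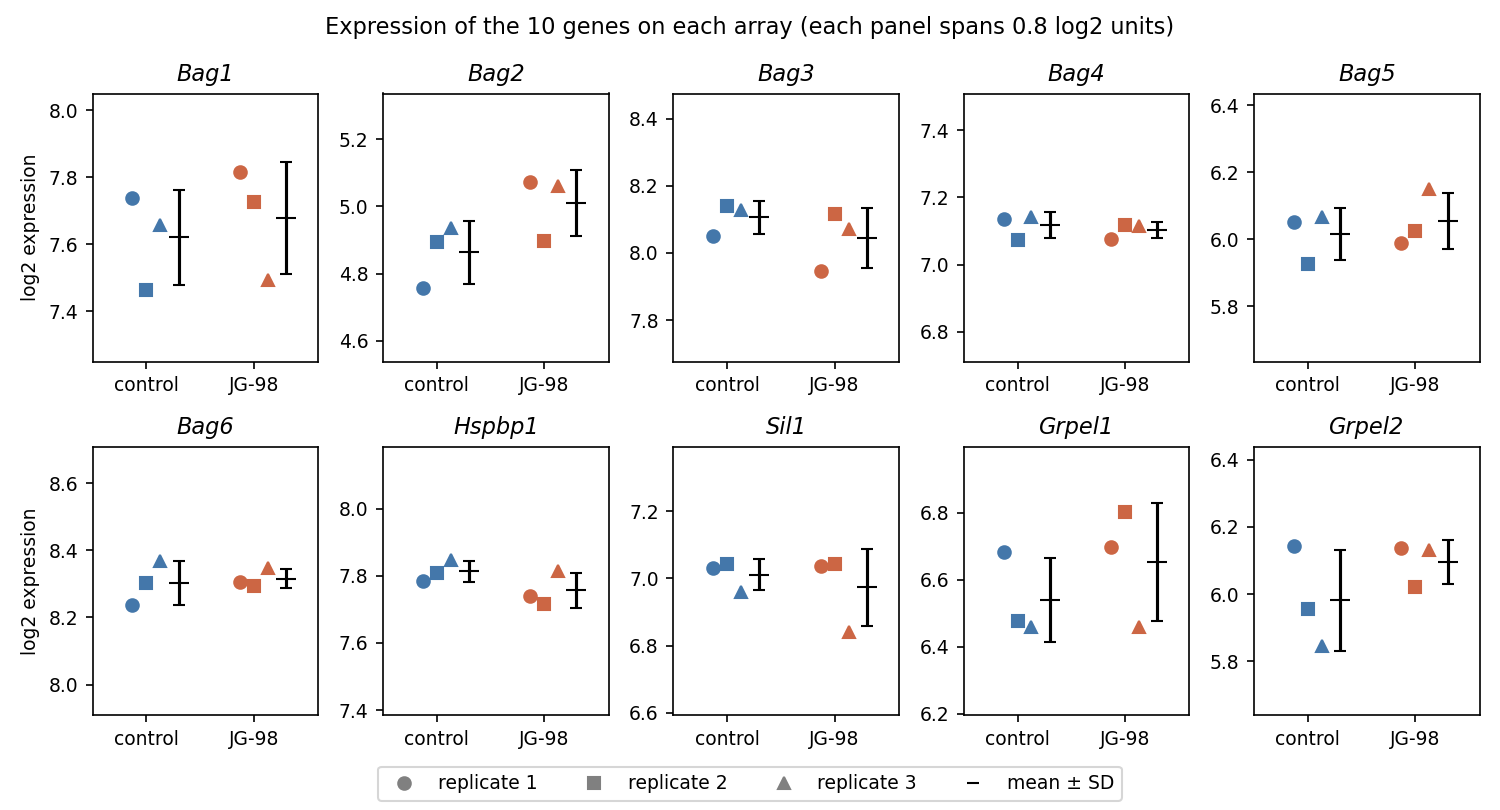
Log2 expression (y axis) of each of the 10 genes in the 3 control arrays (blue) and the 3 JG-98 arrays (orange), with the symbol giving the replicate number and the black bar the mean ± SD. Every panel spans 0.8 log2 units and the groups overlap in each, with the low JG-98 replicate 3 visible for Bag1, Sil1 and Grpel1.

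Hspbp1 and Sil1 are armadillo-repeat exchange factors that act on Hsp70 in the cytosol and on Hspa5 (BiP) in the endoplasmic reticulum. Hspbp1 read 7.78, 7.81 and 7.85 in the controls and 7.74, 7.72 and 7.81 with JG-98, a difference of -0.057 ± 0.064 (SE, n = 3 per group; limma adjusted p = 0.87). JG-98 replicates 1 and 2 lay below all controls and replicate 3 among them. Without replicate 3 its groups did not overlap, at -0.085 ± 0.062, as was so downward for 16.7% of all probe sets in that comparison. Sil1 read 7.03, 7.04 and 6.96 in the controls and 7.04, 7.04 and 6.84 with JG-98. JG-98 replicates 1 and 2 lay at the level of the higher controls. The difference of -0.038 ± 0.081 rested on replicate 3, and was 0.029 ± 0.064 without it.

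Hyou1 (Grp170) is a second exchange factor for Hspa5, of the Hsp110 and Grp170 class rather than of the 10 genes. It read 8.31, 8.20 and 8.28 in the controls and 8.61, 8.61 and 8.70 with JG-98, so the groups stood clear of each other. Its difference was 0.38 ± 0.068 (SE, n = 3 per group), which is 1.30-fold with a 95% interval of 1.16 to 1.46, and it did not pass over all probe sets (limma adjusted p = 0.25). It did pass in 3 of 14 other settings, which were an intensity trend (adjusted p = 0.010) and both filters on dim probe sets (adjusted p = 0.0496 and 0.012). Each of these settings called more probe sets over the whole table, as given below. In the remaining settings the limma adjusted p of Hyou1 reached 0.76, and it was 0.55 after median centring. Within each array, Hyou1 minus Sil1 was 1.28, 1.15 and 1.32 in the controls and 1.58, 1.57 and 1.86 with JG-98. The change in that difference was 0.42, with higher values on all 3 JG-98 arrays than on any control. Hyou1 came from a list chosen with earlier results of these data known, and its own groups were already separate. The separation of the pair is therefore no support of its own. The exact two-sided permutation p was 0.1, the smallest possible here, and 0.3 after adjustment over the 3 pairs. The change was 0.32 without JG-98 replicate 3. Hspa5 itself differed by 0.15 ± 0.065 (limma adjusted p = 0.62).

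Grpel1 and Grpel2 are the mitochondrial counterparts of bacterial GrpE and serve Hspa9, the Hsp70 of the matrix that pulls imported proteins across the inner membrane. Grpel1 read 6.68, 6.48 and 6.46 in the controls and 6.70, 6.80 and 6.46 with JG-98. JG-98 replicates 1 and 2 were the highest 2 arrays, while replicate 3 lay with the lowest control. The difference was 0.11 ± 0.11 (SE, n = 3 per group; limma adjusted p = 0.85). Without JG-98 replicate 3 it was 0.21 ± 0.095 (limma adjusted p = 0.49) and the groups no longer overlapped, as was so upward for 13.7% of all probe sets there. Without JG-98 replicate 2 it was 0.037. Grpel2 read 6.14, 5.96 and 5.85 in the controls and 6.14, 6.02 and 6.13 with JG-98. Control replicate 1 was the highest of the 6 arrays, and the difference was 0.12 ± 0.094 (limma adjusted p = 0.80), or 0.098 ± 0.11 without JG-98 replicate 3. Leaving out control replicate 3 gave 0.047, and leaving out control replicate 1 gave 0.20.

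The change of Grpel1 relative to Grpel2 was -0.0028 (exact two-sided permutation p = 1), but its spread was wide. Within each array Grpel1 minus Grpel2 was 0.54, 0.52 and 0.61 in the controls and 0.56, 0.78 and 0.33 with JG-98. The 2 extreme values were those of JG-98 replicates 2 and 3, and without replicate 3 the change was 0.11, so the mean near 0 rests on arrays that moved apart. Hspa9 read 9.80, 9.70 and 9.77 in the controls and 10.20, 10.18 and 10.15 with JG-98. Its difference of 0.42 ± 0.063, or 1.34-fold, did not pass with limma over all probe sets (adjusted p = 0.19), and passed in the same 3 settings as Hyou1 (adjusted p from 0.0017 to 0.032). In the remaining settings its limma adjusted p reached 0.72. Setting this Hsp70 against its exchange factors was chosen after their values were seen and is given with no test. Hspa9 minus Grpel1 was 3.11, 3.22 and 3.31 in the controls and 3.50, 3.38 and 3.69 with JG-98. Hspa9 minus Grpel2 was 3.65, 3.75 and 3.92 in the controls and 4.06, 4.16 and 4.01 with JG-98. In both, every JG-98 array lay above every control, with mean changes of 0.31 and 0.30, and of 0.22 and 0.34 without JG-98 replicate 3. The groups of Hspa9 itself were already separate, so the separation of these pairs is no support of its own. The level of such a difference depends on the probes, so only its change between groups can be read.

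**Figure D2:**
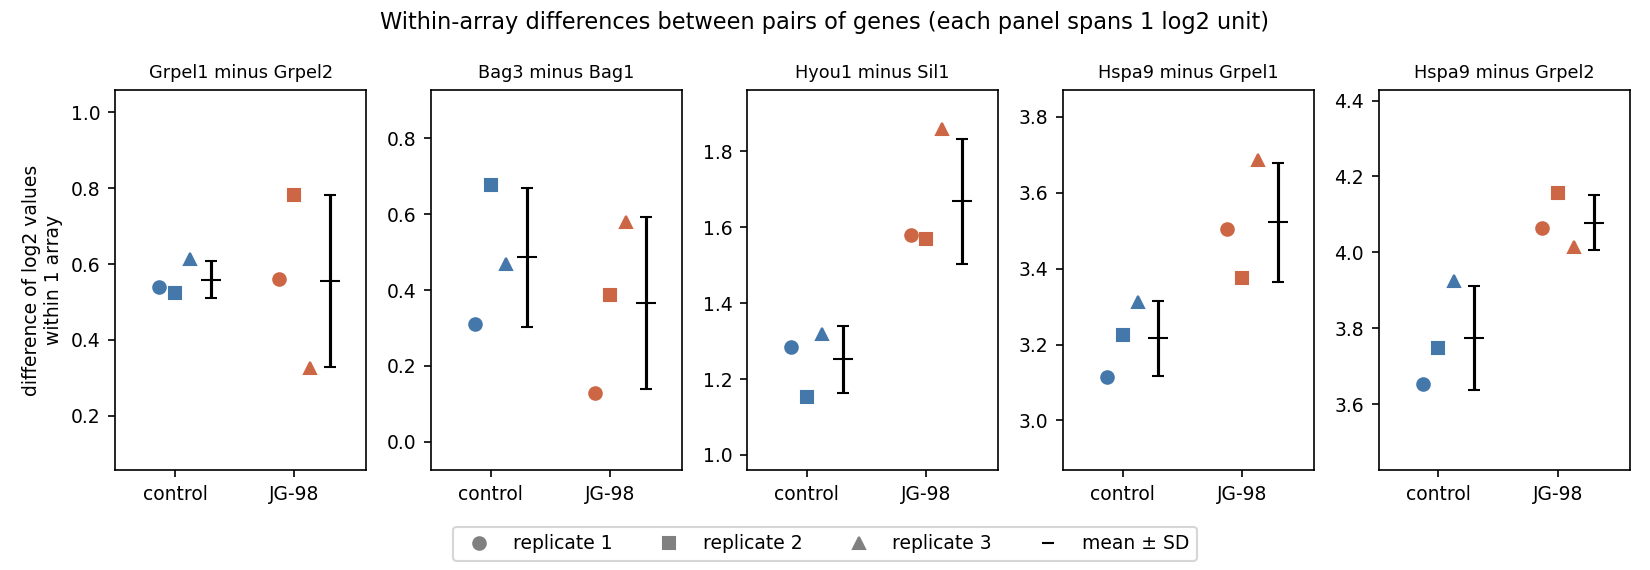
Difference between the log2 values of 2 genes on the same array (y axis) in control (blue) and JG-98 (orange) samples, with symbols for replicates and bars for mean ± SD. Groups overlap for Grpel1 minus Grpel2 and for Bag3 minus Bag1, and are separate for Hyou1 minus Sil1 and for Hspa9 against either Grpel gene, of which the latter 2 pairs were chosen after their values were seen.

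The array that stood apart was the lowest JG-98 array for Bag1, Sil1 and Grpel1 and the highest for Bag5, Bag6 and Hspbp1. Against the control mean, JG-98 replicate 3 was at -0.13 for Bag1, -0.17 for Sil1 and -0.082 for Grpel1, where JG-98 replicates 1 and 2 were at 0.20 and 0.11, 0.025 and 0.033, and 0.16 and 0.26. For Bag5 it was at 0.14, where JG-98 replicates 1 and 2 were at -0.026 and 0.0096. The mean of every list of another cell type was highest on that array. For stromal markers it was 3.40 there and 3.08 to 3.17 on the other 5, and for dendritic cell markers 3.37 against 3.13 to 3.25. For neutrophil markers it was 3.06 against 2.79 to 3.01, and for lymphoid markers 3.07 against 2.89 to 3.03. The median of all probe sets was also highest there, at 4.24 against 4.08 to 4.15. The part of these lists and of that median in the values of the 10 genes was not tested.

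The Hsp110 proteins Hsph1, Hspa4 and Hspa4l, which are the remaining cytosolic exchange factors, differed by 0.061 ± 0.11, 0.065 ± 0.067 and 0.15 ± 0.092, and none passed. Hsph1, like Bag1, was low on JG-98 replicate 3 and on control replicate 2, at 6.70, 6.51 and 6.60 in the controls and 6.75, 6.79 and 6.45 with JG-98, and was at 0.17 ± 0.081 without JG-98 replicate 3. Hspa8, the constitutive cytosolic Hsp70 that the BAG proteins serve, differed by 0.0072 ± 0.076, and by -0.012 after median centring. The stress-inducible cytosolic pair, Hspa1a and Hspa1b, differed by 0.31 ± 0.32 and 0.13 ± 0.33 at readings below the array medians, other than 1 value of 4.42 for Hspa1a on JG-98 replicate 2, and low readings cannot be told from background. Of 17 measured HSF1 targets including Bag3, 0 passed, 1 was higher at an unadjusted p under 0.05 (background 3.84%) and 0 were lower (background 4.48%), with a median of 0.061. The 1 was Hspd1, the mitochondrial Hsp60, at 0.27 ± 0.083. The 17 targets had a median of 0.11 when JG-98 replicate 3 was left out, with 2 higher (background 5.05%) and 0 lower (background 6.24%) at that p. Besides Hspa1a and Hspa1b, the targets Hspb1 and Hspb8 read below the array medians, and Cryab and Hsp90aa1 averaged 4.01 and 4.16, near them. Such low readings limit what the counts and medians of this list can show.

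**Figure D3:**
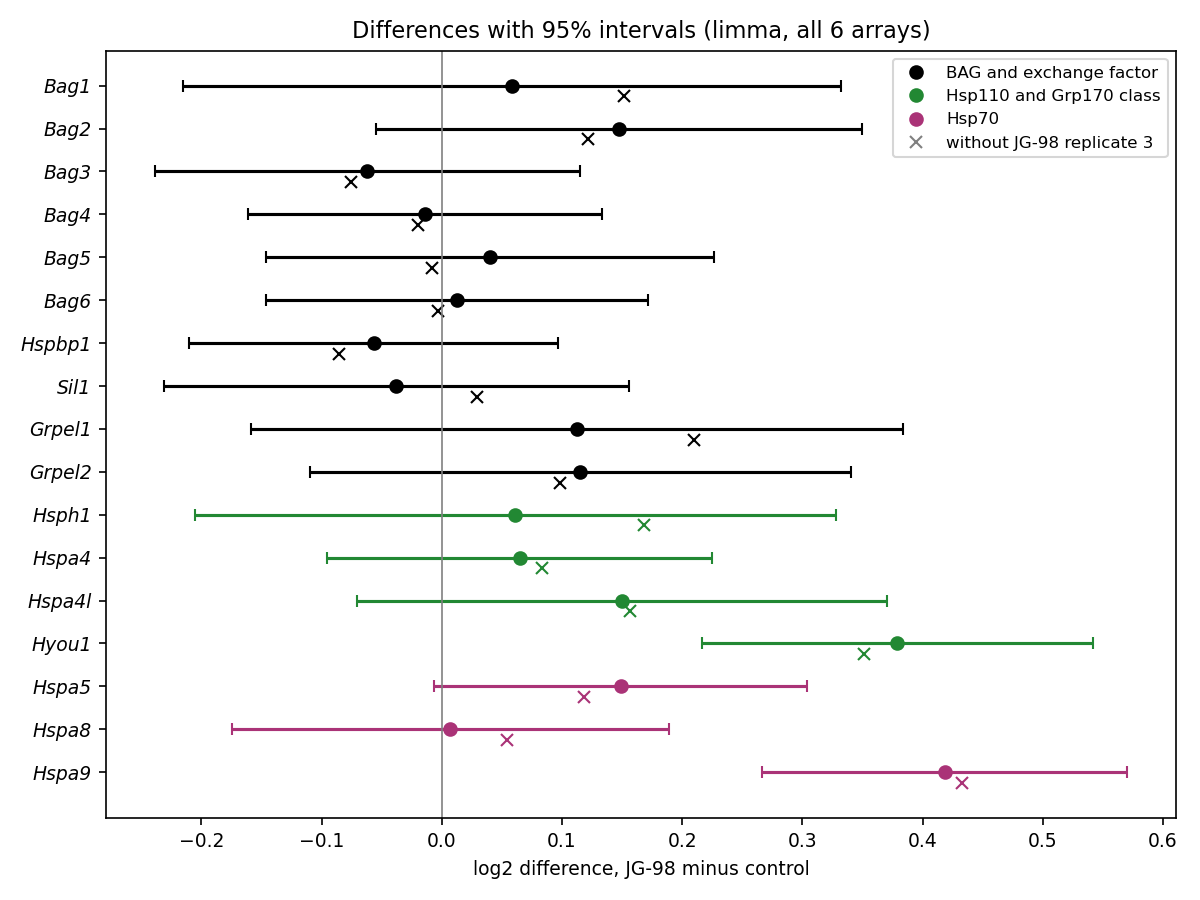
Log2 difference, JG-98 minus control (x axis), with 95% intervals from limma on all 6 arrays, for the 10 genes (black), the Hsp110 and Grp170 class (green) and 3 Hsp70 proteins (purple), with crosses for values without JG-98 replicate 3. The intervals of all 10 genes include 0, and those of Hyou1 and Hspa9 lie above it.

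In the 2 organelle systems to which the organelle exchange factors belong, none of the components passed over all probe sets. Of 16 genes for the Hsp70 system of the endoplasmic reticulum, Sil1 among them, 3 were higher at an unadjusted p under 0.05 (background 3.84%) and 0 lower (background 4.48%), with a median of 0.043. These were Hyou1 and the J-domain partners of Hspa5 Sec63, at 0.22 ± 0.062, and Dnajc1, at 0.19 ± 0.064. Of 14 genes for the mitochondrial import motor and matrix Hsp70 system, both Grpel genes among them, 3 were higher and 0 lower against the same backgrounds of 3.84% and 4.48%, with a median of 0.045. These were Hspa9, the channel subunit gene Timm17a at 0.27 ± 0.072 and the J-domain partner Dnaja3 at 0.26 ± 0.087. Of the 14, 9 lay above 0 and 5 below, among the latter Dnajc19 at -0.29 ± 0.15 and Timm17b at -0.16 ± 0.068. Without JG-98 replicate 3 the medians were 0.065 and 0.11, and 3 were higher and 0 lower in the first list and 3 higher and 1 lower in the second (backgrounds 5.05% and 6.24%). The 1 that was lower was Timm17b, at -0.19 ± 0.065.

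**Figure D4:**
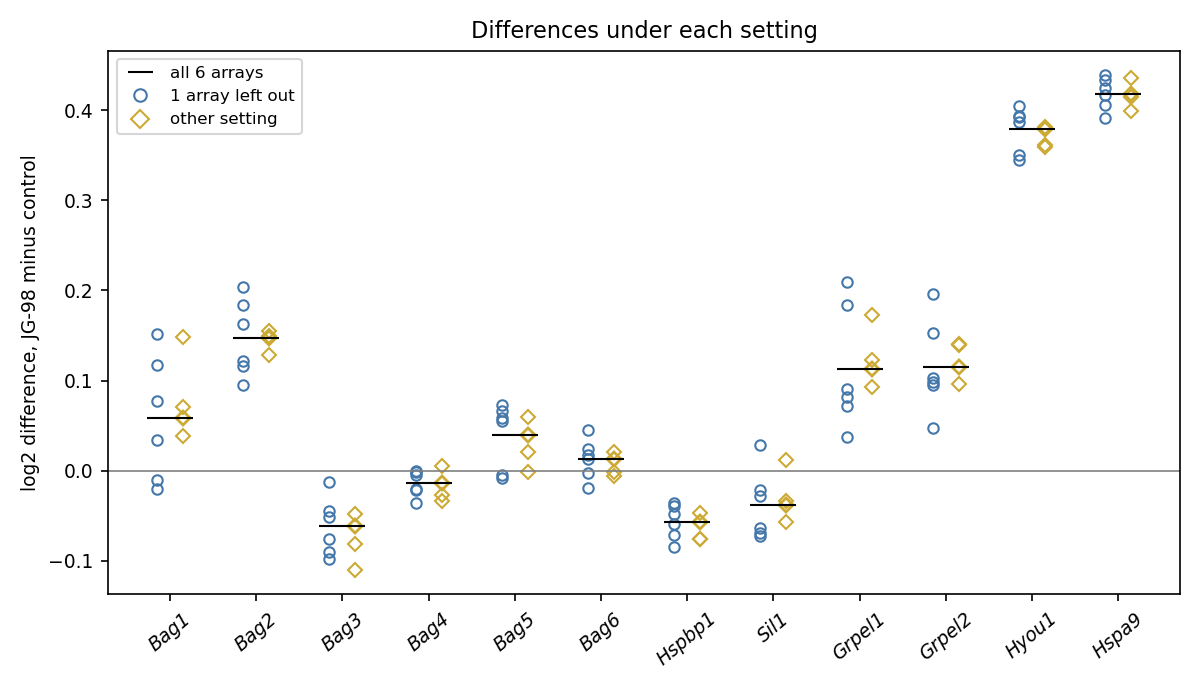
Log2 difference, JG-98 minus control (y axis), of the 10 genes and of Hyou1 and Hspa9 with all 6 arrays (bar), with 1 array left out (circles) and under the other settings (diamonds). The values of the 10 genes stay between -0.11 and 0.21, and those of Hyou1 and Hspa9 between 0.35 and 0.44.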

How the data were processed

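For each of 6 single-colour arrays the authors deposited 1 log2 value per probe set. The submitters' processing notes list RMA, the affy package and R 2.15.1, with no role for any, and no source used here names a genome build. RMA, as generally defined, summarises probes after background correction and quantile normalization, which compresses differences of dim probe sets and removes a shift of all genes together. Each probe set carries an Entrez number. Symbols came from the platform annotation, updated through that number in RefSeq's table for GRCm38.p6, and 23185 of 25206 probe sets had one.

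JG-98 was compared with control by lmFit and eBayes of limma 3.58.1 (R 4.3.3; two-sided, no covariate) with Benjamini-Hochberg adjustment over all 25206 probe sets and a threshold of 0.05. Intervals are moderated 95% intervals. The residual degrees of freedom were 4, with 2.59 from the prior. Within-array differences of gene pairs were tested by exact permutation over samples. The fit was tested on simulated data. Other settings were median centring, a further quantile normalization, filters for a mean at or above the median probe set or 6, an intensity trend, a robust prior, array weights (statmod 1.5.0), the replicate number as a block, and leaving out each array. Named genes are the 10 members, the Hsp110 and Grp170 class, 5 Hsp70 genes, and in each other list up to 3 genes of smallest p. Timm17b and Dnajc19 are named for lying below 0. Outside that rule, Stub1 and Tnfrsf1a are named as partners of BAG proteins, and Hspb1, Hspb8 and Hsp90aa1 for their low readings. The members and lists were chosen with earlier results of these data known. The number of arrays limits the precision.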

Additional observations from a re-analysis of the deposited data

How the results depend on the processing

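No member passed the adjusted p of 0.05 in any of the 14 other settings, in which the smallest adjusted p among the 10 genes was 0.41 (Bag2, with probe sets at or above the median one). The filter for a mean of at least 6 left Bag2 out. Bag2, Bag3, Hspbp1, Grpel1 and Grpel2 kept their direction in every setting run. After median centring Bag6 was at -0.0065 and Hspa8 at -0.012, after a further quantile normalization Bag4 was at 0.0048, and with array weights Bag5 was at -0.0018, Bag6 at -0.0020 and Sil1 at 0.012. Leaving out 1 array gave ranges of -0.020 to 0.15 for Bag1, 0.095 to 0.20 for Bag2, -0.098 to -0.013 for Bag3, 0.037 to 0.21 for Grpel1, 0.047 to 0.20 for Grpel2, -0.0080 to 0.073 for Bag5, -0.019 to 0.045 for Bag6, -0.073 to 0.029 for Sil1, -0.0046 to 0.17 for Hsph1, -0.050 to 0.054 for Hspa8, -0.018 to 0.57 for Hspa1a and -0.28 to 0.39 for Hspa1b. The change of Grpel1 minus Grpel2 ranged from -0.12 to 0.11, that of Bag3 minus Bag1 from -0.23 to -0.0023 and that of Hyou1 minus Sil1 from 0.32 to 0.47. Among partner genes, Sqstm1 and Timm17a passed with a mean of at least 6 (limma adjusted p = 0.041 and 0.038) and with an intensity trend (0.021 and 0.046), and Hspb6 (0.024), Pink1 (0.029), Tomm70a (0.033) and Sec63 (0.036) with a mean of at least 6. The largest limma adjusted p of each of these genes over the settings lay between 0.76 and 0.84. Over all 25206 probe sets, limma called 10 with all arrays, 254 with an intensity trend, 25 with array weights, and 0 to 5 without any 1 array. With the filters it called 90 of 12603 probe sets at or above the median one and 385 of 8064 with a mean of at least 6. The filters test fewer probe sets, and they also change the standard errors. That of Hspa9 was 0.063 over all probe sets and 0.050 with probe sets at or above the median one. The cause of these changes in count was not tested. When a replicate block was added, limma called 0 probe sets (1855 at an unadjusted p under 0.05) and 0 members, and Hyou1 minus Sil1 had a permutation p of 0.25, the smallest that 3 pairs allow. The labels do not explain the replicate numbers. Deviations from the group means of same-numbered samples correlated at 0.095, -0.13 and 0.10, and those of differently numbered samples at -0.23 to 0.20. With 3 samples per group, these values cannot show whether same-numbered samples shared a mouse, culture or batch.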

Other observations

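Among the partners through which BAG proteins act, none passed over all probe sets with limma. Of 11 Bag3 partners in selective autophagy and Hippo signalling, 1 was higher at an unadjusted p under 0.05 (background 3.84%) and 2 were lower (background 4.48%), with a median of -0.079, and of -0.017 without JG-98 replicate 3, where 2 were higher (background 5.05%) and 2 lower (background 6.24%). Hspb6, a small heat shock protein that Bag3 binds, read 7.47, 7.50 and 7.45 in the controls and 7.14, 7.25 and 7.21 with JG-98. Its difference was -0.28 ± 0.064 (SE, n = 3 per group; limma adjusted p = 0.36). The autophagy receptor gene Sqstm1 (p62) was at 0.22 ± 0.064 and Map1lc3b (LC3), the autophagosome protein it binds, at -0.25 ± 0.083. In each the groups did not overlap, but both were named for a small p, which favours such separation. Of the 11 partners, the groups did not overlap upward in 2 and downward in 2 (background 15.6% for both directions together). The small heat shock proteins Hspb8 and Hspb1, also Bag3 partners, read 1.98 to 3.08 on every array, below the array medians, where background is not excluded.

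Of 9 measured partners of Bag1, Bag4 and Bag5, 1 was higher (background 3.84%) and 2 were lower (background 4.48%) at an unadjusted p under 0.05, with a median of -0.059. The median was -0.11 without JG-98 replicate 3, with 1 higher (background 5.05%) and 1 lower (background 6.24%). Bcl2, the survival protein through which Bag1 was named, read 8.37, 8.33 and 8.31 in the controls and 8.70, 8.69 and 8.77 with JG-98. Its difference of 0.38 ± 0.063 had a limma adjusted p of 0.22, and passed in the 3 settings in which Hyou1 did. In the remaining settings that adjusted p reached 0.73. Pink1, the mitochondrial kinase that activates the Bag5 partner parkin, read 7.39, 7.29 and 7.28 in the controls and 7.05, 7.01 and 6.84 with JG-98, at -0.36 ± 0.081 (limma adjusted p = 0.35). The apoptosis inhibitor gene Birc3 was at -0.18 ± 0.075. Tnfrsf1a, the receptor that Bag4 binds, was at 0.012. The list of the Bag6 pathway for tail-anchored proteins held 6 genes, Bag6 among them. At an unadjusted p under 0.05, 0 were higher (background 3.84%) and 0 lower (background 4.48%). The 3 of smallest p were the ligase gene Rnf126 at 0.15 ± 0.076, the Bag6 co-chaperone gene Sgta at -0.11 ± 0.066 and Ubl4a, a subunit of the Bag6 complex, at -0.091 ± 0.073. Of 7 Hsp70 co-chaperones with tetratricopeptide repeats, 1 was higher (background 3.84%) and 0 were lower (background 4.48%) at an unadjusted p under 0.05. The 1 was Tomm70a, a mitochondrial import receptor, at 0.25 ± 0.067. The ligase gene Stub1 (CHIP), a partner of Bag2 and Bag3, was at 0.027 ± 0.075.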
